A study of Mus musculus with 14 samples.

Results

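The 7 livers of mice kept on the control diet were described on their own, as a baseline of gene expression in the adult male liver and of how far it varies from mouse to mouse. They are 7 of the 14 arrays of a feeding study. The animals were males of the inbred laboratory strain CBA/J, caged singly and given 84 kcal per week of a purified AIN93M-type diet. The control diet ran from 2 to 5 months of age, so livers were taken after 3 months of feeding. Each array held the RNA of 1 mouse, so the spread between arrays joins the spread between mice with that of labelling and hybridisation, and no technical repeat separates them. The mice are called 1 to 7 by their replicate number in the sample titles. Time of day and hours since the last meal do not appear in the labels, so values of genes driven by food or by the clock are given without them.

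The liver parenchyma is made mostly of hepatocytes, which secrete the plasma proteins, package lipid into lipoproteins, dispose of nitrogen as urea and break down foreign compounds through cytochromes P450. Several of their programmes are not constant: glucose output follows insulin, glucagon and glucocorticoids, fat synthesis follows feeding, a circadian clock times many transcripts, and in male rodents growth hormone arrives in pulses that switch the STAT5 transcription factor on and off. Mice of an inbred strain share nearly all of their genome, so their livers can differ in the state of such programmes, in small amounts of neighbouring tissue and in handling.

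Expression was read as the signal of a probe set, a group of short probes against 1 transcript, on a linear scale. A gene was represented by its brightest probe set among those assigned to that gene alone, which gave 18193 genes. Of these, 5902 had a mean signal over 500 in the control livers and entered the ranking by spread. The median signal of an array ranged from 88.7 to 109 over all probe sets, and the signals of the 5902 genes correlated between arrays with a Pearson r, across genes, of 0.919 to 0.985 (median 0.969). The ratio of 3' to 5' signal, which grows when RNA is broken or labelled short, was 1.78 to 2.44 for actin and 4.49 to 10.7 for pyruvate carboxylase. The poly-A spike-ins, bacterial transcripts added to the RNA before labelling, had log2 levels of 10.47 in mouse 1, 10.49 in mouse 4 and 10.75 in mouse 3, and reached 11.16 in mouse 5 and 11.44 in mouse 2. That order recurs in the gene patterns described further on.

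The brightest genes were those of hepatocyte secretion, lipid handling and detoxification. Fabp1, which carries fatty acids in the hepatocyte cytosol, had the highest mean, 88851 ± 15116 (SD, n = 7). Its signal was 68953 in mouse 1, the lowest, with a median of 91437 and 111410 in mouse 2, the highest. Apoa1 and Apoa2, the main proteins of high-density lipoprotein, followed with 85526 ± 12816 and 71569 ± 13419 (SD, n = 7). Apoe, a ligand for lipoprotein receptors, Apoh and Apoc1 were also among the 30 brightest, at 66967, 56665 and 55226. Signals of different probe sets depend on how well each probe binds, so the order of brightness is not an order of transcript amount.

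Plasma proteins made by hepatocytes held many of the other places. Serpina1c and Serpina1b, mouse alpha-1 antitrypsins, had means of 70500 and 69844, but these near copies can share probes and are uncertain as separate genes. Ttr, the thyroxine and retinol carrier, had 66460 ± 11975, Alb, serum albumin, 63215 ± 12783, and Rbp4, the retinol carrier, 59814 ± 9393 (SD, n = 7). Pzp, a broad protease inhibitor, stood at 60170, Hpx, which binds free haem, at 55458 and Selenop, the selenium carrier, at 61112. Fga and Fgb, chains of fibrinogen, reached 60657 and 55936. Fgb was the steadiest of the 30, from 49916 in mouse 1 to 59880 in mouse 2 with a median of 58839.

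The enzymes among the 30 covered several pathways. Car3, a carbonic anhydrase abundant in male rodent liver, had 70279 ± 11906, and Bhmt, which remethylates homocysteine from betaine, 67600 ± 11004 (SD, n = 7). Cyp2e1 and Cyp3a11, cytochromes P450 for small solvents and for many drugs, had 68880 and 59984, and Mgst1 and Gstp1, glutathione transferases, 68066 and 60168. Scd1, which makes monounsaturated fatty acids, read 67522 on its brightest probe set and 25758.5 on another, and these differed in spread (SD 0.24 and 0.52) and correlated with an r of only 0.45 over the 7 mice, so its level is uncertain. Uox, the urate oxidase that rodents keep, had 55295 and Scp2, a peroxisomal sterol carrier and thiolase, 55438.

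The remaining bright genes were of general cell function. Rps29, a ribosomal protein, had 65077, Tpt1, an abundant translationally controlled protein, 60222, and B2m, the light chain of MHC class I, 57929. ND5, a mitochondrially encoded subunit of respiratory complex I, had 64730 and Uqcrb, a subunit of complex III, 55630. ND5 was the most variable of the 30, from 43704 in mouse 1 through a median of 68028 to 86862 in mouse 2.

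**Figure D1:**
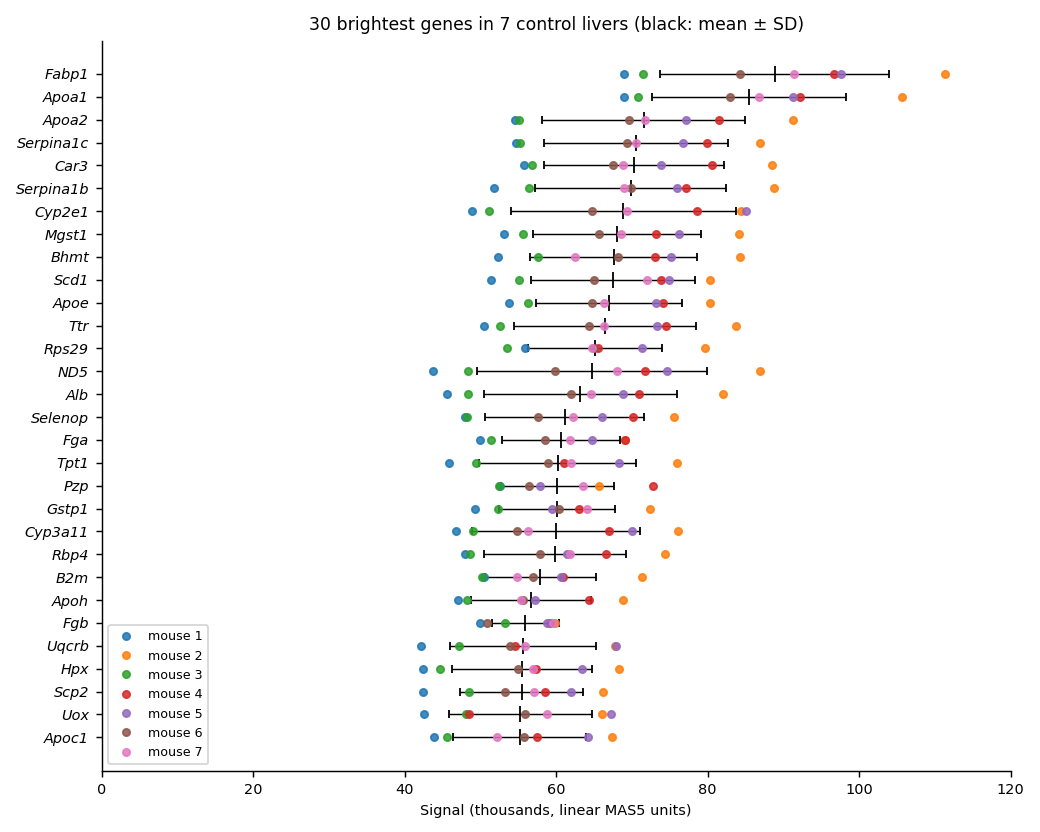
Signal of the 30 brightest genes in each of the 7 control livers, on a linear axis that starts at 0 and is labelled in units of 1000; coloured points are mice and the black tick and bar are the mean ± SD. Mouse 1 is lowest for 27 genes and mouse 2 highest for 25, so the points keep much the same order from gene to gene.

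The order of mice was nearly the same for all 30. The signal was highest in mouse 2 for 25 genes, in mouse 5 for 3 and in mouse 4 for 2, and lowest in mouse 1 for 27 and in mouse 3 for 3. The median deviation of the 30 genes from their own averages, on the log2 scale, was 0.32 in mouse 2 and -0.34 in mouse 1. The deposited scaling gave the arrays a common trimmed mean and left their top ends unequal, and how far this shift belongs to the arrays was not tested. None of the 30 had an SD of log2 signal over 0.5. Quantile normalization, which gives all arrays the same distribution, kept 29 of the 30 and moved each named mean by less than its SD. It keeps the average level of bright genes nearly fixed, so a larger move was hardly possible.

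Markers of liver cell types were read from lists. Over all genes, 5902 of 18193 had a mean over 500, and the counts of markers stand beside that share. The 7 measured genes of a list of 8 general hepatocyte markers were bright: Alb, Ttr, Apoa1, Cyp2e1 and Fgb are given above, Ahsg, the plasma protein fetuin, had a mean of 47264, and Cps1, which starts the urea cycle, 37717. Kupffer cell and macrophage markers passed 500 for 12 of 16 measured genes, among them Clec4f, a Kupffer cell lectin, at 1641 ± 182 (SD, n = 7), Cd5l, a macrophage-secreted protein, at 2025, Csf1r, the growth factor receptor of macrophages, at 2089 and Vsig4, a complement receptor, at 1466. Sinusoidal endothelial markers passed for 10 of 15, led by Clec4g at 4742, Fcgr2b at 3168 and Stab2, a scavenger receptor, at 2024. Stellate cell and matrix markers passed for 9 of 16, with Dcn, the proteoglycan decorin, at 9138, Reln at 2471 and Lrat, which stores retinol as ester, at 943.

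Markers of most other cells were low, and few passed 500, beside 5902 of all 18193 genes. None of the 12 T and NK cell genes, 8 neutrophil genes or 10 skeletal muscle genes had a mean over 500, and their brightest members were Prf1 at 149, Ngp at 171 and Ckm at 106. Of 14 pancreatic acinar genes only Cela1 passed, at 4171, while Cela2a was at 43.2 and Cpa1 at 6.82. Of 8 bile duct genes only Tm4sf4 passed, at 2112, with Krt19 at 59.4. Of 8 red blood cell genes 2 passed, a share not far from that of all genes: Alas2, the first enzyme of erythroid haem synthesis, at 3501 and Car1 at 586. Of 9 immunoglobulin and B cell genes only Ighm passed, at 635. Adipocyte markers are taken up with Fabp4 below. In these whole-tissue samples, fewer cells of a type and less RNA per cell cannot be told apart.

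Spread was measured as the SD over the 7 mice of log2(signal + 16), the added 16 damping the noise of dim probe sets. Among the 5902 genes the median SD was 0.23, with 0.17 and 0.32 at the 25th and 75th percentiles and a range of 0.033 to 2.61. The highest mouse was under 2 times the lowest for 80.7% of genes. An SD over 0.5 was found for 348 genes, 5.9% of the 5902, and an SD over 1 for 18, 0.305%. Dimmer genes varied a little more: the median SD was 0.25 for the 2052 genes with mean signals of 500 to 1000 and 0.21 for the 242 over 20000, of which none passed 0.5.

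**Figure D2:**
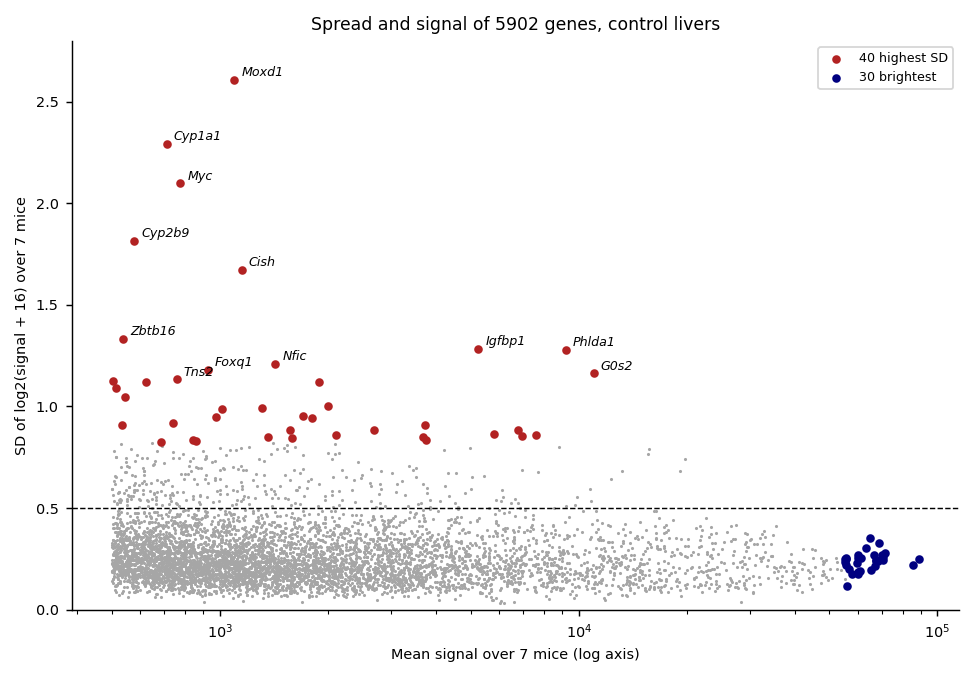
SD of log2(signal + 16) over the 7 control mice (linear axis) against mean signal (log axis) for 5902 genes; red points are the 40 genes with the highest SD, dark blue points the 30 brightest, and the dashed line is an SD of 0.5. Most genes lie under the line, and Moxd1, Cyp1a1, Myc, Cyp2b9 and Cish stand furthest above it.

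The threshold of 500 is a line through a continuum. Just inside it were Anapc15 at 500.2, Tmem107 at 500.3 and Znhit3 at 500.5, and just outside Pigu, Mios and Polr2a, each at 499.8 or 499.9. Polr2a, the largest subunit of RNA polymerase II, would have ranked among the variable genes with its SD of 1.03. The genes ranked 38 to 40 by spread were Slc25a23, Gdap10 and Il1r1 (SD 0.83, 0.83 and 0.83), and the next were Lpin1, Ppp6r1 and Neat1 (0.82, 0.82 and 0.82).

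Spread was compared between probe sets of the same gene. For 2059 genes with a further probe set over 500, the correlation between both over the 7 mice had a median r of 0.67. It was 0.93 for the 91 of these genes with an SD over 0.5, and 0.51 for the 1216 with an SD up to 0.25. For Egfr the brightest probe set had an SD of 0.87 and the second brightest 0.30, with an r of 0.21 between them. The 2 further Egfr probe sets over 500 had SDs of 0.58 and 0.62 and an r of 0.89 and 0.68 with the brightest.

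The 348 genes with an SD over 0.5 fell into a few patterns of mice. Their 3 highest mice were 1, 3 and 4 for 160 genes (46.0%, against 11.2% of all 5902), and mouse 5 was the lowest for 131 of those. Mice 1, 4 and 7 were the 3 highest for 55 genes (15.8% against 7.56%). Mice 2, 3 and 5 were highest for 19 (5.46% against 3.71%) and mice 1, 4 and 6 for 15 (4.31% against 3.71%). Mice 1, 3 and 7 were highest for 13 (3.74% against 4.74%) and mice 2, 5 and 6 also for 13 (3.74% against 11.6%). Mice 3, 5 and 6 were highest for 8 (2.30% against 2.07%) and mice 3, 4 and 7 also for 8 (2.30% against 3.12%). These groups were formed from the values themselves and are descriptions of 7 animals.

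**Figure D3:**
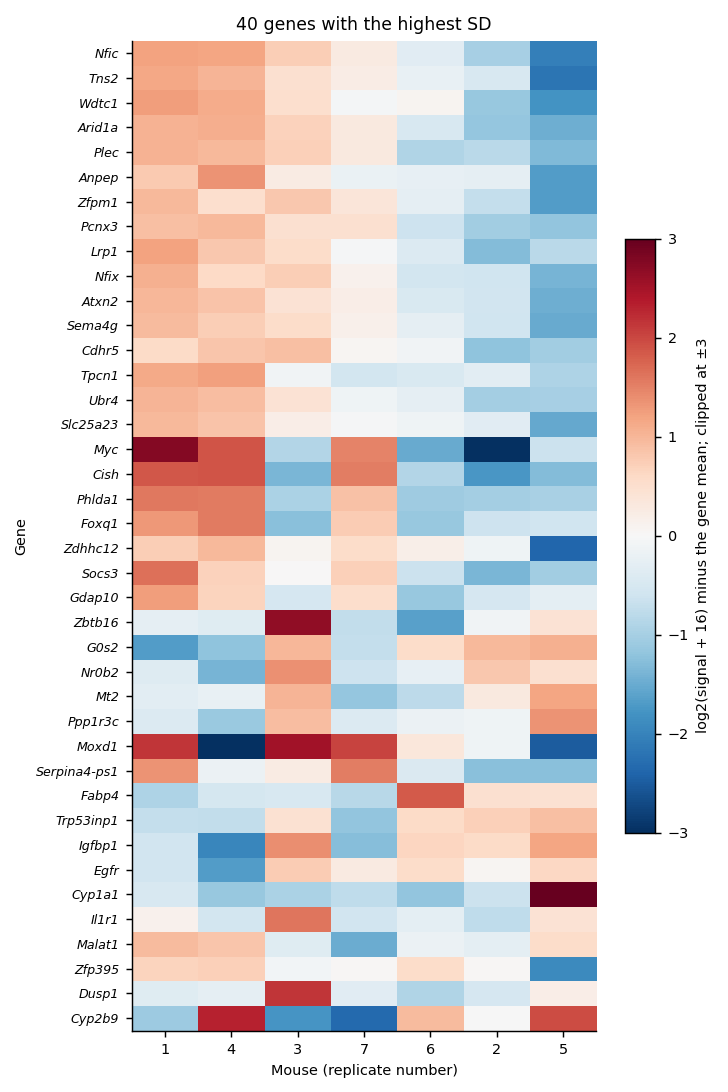
The 40 genes with the highest SD (rows) in the 7 control mice (columns, ordered 1, 4, 3, 7, 6, 2, 5); colour is log2(signal + 16) minus the gene mean, red above and blue below, clipped at 3 in each direction. The upper block is red in mice 1, 4 and 3 and blue in mouse 5, the block with Myc and Cish is red in mice 1, 4 and 7, and Cyp1a1 is red only in mouse 5.

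The block high in mice 1, 3 and 4 held 16 of the 40 most variable genes. Nfic and Nfix, transcription factors of the nuclear factor I family, Arid1a, a subunit of a chromatin remodelling complex, and Zfpm1, a cofactor of GATA factors, are nuclear regulators. Nfic was lowest in mouse 5 at 256, had a median of 1339 and was highest in mouse 1 at 2582 (SD 1.21). Mice 1 and 4 lay close together at 2582 and 2547, and mice 2 and 5 were both at 544 or below. The 4 other Nfic probe sets correlated with it over the mice with r of 0.84 to 0.94.

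Cytoskeletal and membrane genes belonged to the same block. Lrp1, an endocytic receptor for remnant lipoproteins, ran from 1282 in mouse 2 through a median of 3088 to 7290 in mouse 1 (SD 0.91). Plec, the cytolinker plectin, ran from 328 to 1764, Tns2, a focal adhesion protein, from 123 to 1387, and Sema4g, a semaphorin, from 2343 to 12770. Ubr4, a very large ubiquitin ligase, ran from 355 to 1503, and Atxn2, an RNA-binding protein, from 482 to 2731. Wdtc1, Anpep, Pcnx3, Cdhr5, Tpcn1 and Slc25a23 completed the block.

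The poly-A spike-in level moved with this block. Mice 1, 4 and 3 had the 3 lowest levels and mice 2 and 5 the highest. With that level as a covariate, 37 of the 160 genes (23.1%) kept an SD over 0.5, and Lrp1 went to 0.31, Ubr4 to 0.28, Cdhr5 to 0.40 and Wdtc1 to 0.495, while Nfic stayed at 0.71. For all 5902 genes the count over 0.5 was 174 in place of 348. This alternative was added after the data were seen, and with 7 arrays it also removes whatever else follows the same order of mice.

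A separate set was high in mice 1, 4 and 7. It included Cish, Socs2 and Socs3, feedback inhibitors that cytokine and growth hormone receptors induce through STAT factors. Cish was 189 in mouse 2, the lowest, with a median of 357 and 2507 in mouse 4, the highest (SD 1.67). Mice 1, 4 and 7 were at 2495, 2507 and 1983, and the other 4 mice at or below 357, so the values formed separate high and low groups with no mouse between.

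Socs3, which is best known for damping interleukin-6 signals, was 144 in mouse 2, 401 at the median and 1294 in mouse 1 (SD 1.09), with mice 7 and 4 next at 665 and 652. Socs2, which limits growth hormone signalling, was 660 in mouse 5, 1357 at the median and 3593 in mouse 1 (SD 0.81). Mice 4 and 7 followed at 1887 and 1448, but mouse 7 was only slightly above mouse 6 at 1357, so the gap seen for Cish was not seen for Socs2. Its next brightest probe set correlated with an r of 0.97, and the other probe sets of Socs3 with r of 0.95 and 0.87.

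The promoters of Cish and Socs3 are shown because their transcripts were high in the same mice and because STAT factors bind a short palindrome. The windows run from 250 bases before to 30 after the RefSeq transcription start, 5' to 3' on the gene's own strand, in build GRCm38.p6, with each match to TTCNNNGAA in capitals (the motif reads the same on both strands). Cish lies on chromosome 9 at chr9:107296409-107296688 on the plus strand, and Socs3 on chromosome 11 at chr11:117969337-117969616 on the minus strand.
Cish: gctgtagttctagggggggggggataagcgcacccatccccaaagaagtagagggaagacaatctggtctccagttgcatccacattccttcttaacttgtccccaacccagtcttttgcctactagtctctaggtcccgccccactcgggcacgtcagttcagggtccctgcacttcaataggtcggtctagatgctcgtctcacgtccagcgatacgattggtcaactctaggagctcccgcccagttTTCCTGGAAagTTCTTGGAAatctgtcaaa
Socs3: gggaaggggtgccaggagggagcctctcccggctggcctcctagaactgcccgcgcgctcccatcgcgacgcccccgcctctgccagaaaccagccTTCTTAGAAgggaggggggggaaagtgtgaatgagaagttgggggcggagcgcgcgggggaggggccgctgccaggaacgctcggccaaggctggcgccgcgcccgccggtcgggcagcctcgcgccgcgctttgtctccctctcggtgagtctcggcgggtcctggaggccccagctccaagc
Cish holds 2 matches, at bases 251 to 259 and 262 to 270 of the window, and Socs3 holds 1, at bases 97 to 105. The window of Moxd1, a gene described below, was also searched and holds 1, at bases 101 to 109. Moxd1 did not follow the same mice: its signal was lowest in mouse 4, at 6.22. Of 32851 mouse promoter windows of the same length 7.83% hold at least 1 match and 0.408% at least 2. A match describes letters and does not show that a factor was bound in these livers.

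Myc, Phlda1 and Foxq1 had the same 3 mice on top. Myc, a driver of growth and ribosome production, was 27.1 in mouse 2, 224 at the median and 2494 in mouse 1 (SD 2.10), with mice 4 and 7 at 1357 and 1020. Phlda1, a pleckstrin-homology protein induced by growth factors, was 3117 in mouse 6, 3391 at the median and 19728 in mouse 1 (SD 1.28). Its 4 low mice lay between 3117 and 3391 and its 3 high mice between 12102 and 19728, again with none between. Foxq1, a forkhead factor, ran from 280 in mouse 3 through 449 to 2084 in mouse 4 (SD 1.18).

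Mice 1 and 4 had the lowest poly-A levels, and mouse 7, at 10.96, had the third highest of the 7. Of the 55 genes of this pattern 26 (47.3%) kept an SD over 0.5 with the poly-A level as a covariate, as did 163 of all 348 genes with an SD over 0.5. The part of array quality in this pattern was not tested further. Of 17 immediate early genes, which respond to stimuli within minutes, 4 had a mean over 500, beside 5902 of all 18193 genes. The 4 were Myc, Dusp1, Zfp36 and Ier2. Fos and Fosb, the classical members, had means of 43.9 and 45.9, and Egr1 and Jun 227 and 488.

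**Figure D4:**
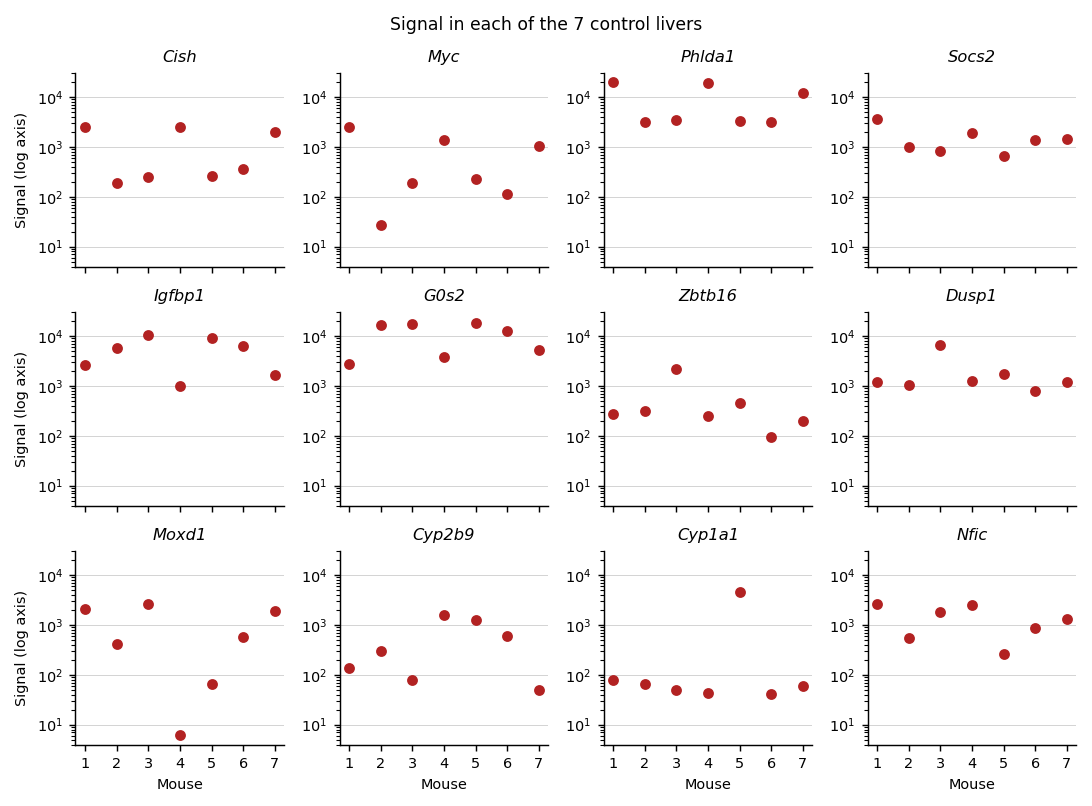
Signal (log axis) of 12 variable genes in each of the 7 control mice; each point is 1 mouse. Cish, Myc and Phlda1 are high in mice 1, 4 and 7, Igfbp1 and G0s2 are low in those mice, Zbtb16 and Dusp1 peak in mouse 3, and Cyp1a1 stands at 4638 in mouse 5 against 77.2 or less elsewhere.

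Genes with male-biased expression in mouse liver, which depend on pulsed growth hormone, had the highest median SD of the lists with at least 5 members over 500: 0.53 over 20 members with a mean over 500, against 0.23 for all genes. Of these 20, 10 had an SD over 0.5, beside 5.9% of all genes. The 10 include Cish and Socs2 (SD 1.67 and 0.81), the feedback inhibitors described above. The list was not ranked without them, so its place may rest on their inclusion. Moxd1, a monooxygenase-like protein, was the most variable gene of all (SD 2.61). It was 6.22 in mouse 4, the lowest, with a median of 577 and 2676 in mouse 3, the highest, and mouse 5 was also low at 66.8. Mice 1, 3 and 7 were all at 1882 or more, and the value of mouse 4 is below the 16 added before the log.

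Other male-biased genes did not all rank the mice alike. Serpina4-ps1, a serpin pseudogene transcribed in male liver, was 602 in mouse 2, 1284 at the median and 4223 in mouse 7 (SD 1.12). Ugt2b38, a glucuronosyltransferase, was 245 in mouse 4 and 1310 in mouse 3 (SD 0.78), and Bcl6, a repressor of female-biased genes, was 587 in mouse 4 and 2552 in mouse 3 (SD 0.71). Elovl3, a fatty acid elongase, stood apart in mouse 3 at 5766, with the other 6 mice between 1246 and 1814. Gstp1, Nudt7 and Cyp2d9, which are also on the list, were steady, with SDs of 0.19, 0.18 and 0.13.

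The female-biased list had 5 of 19 measured members over 500, beside 5902 of all 18193 genes. Cyp2b9, a cytochrome P450 silenced in adult males, was 49.4 in mouse 7, 306 at the median and 1596 in mouse 4 (SD 1.82). Mouse 5 was next at 1258, so the 2 mice highest in Cyp2b9 were the 2 lowest in Moxd1. Mice 3 and 7, lowest in Cyp2b9 at 79.2 and 49.4, were among the 3 highest in Moxd1. Acot3, Rtn4, Fmo2 and Trim24 had SDs of 0.43, 0.40, 0.39 and 0.22. Another Rtn4 probe set, with a mean of 5035, had an SD of 0.54.

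The list of gluconeogenesis and the fasting response had a median SD of 0.48, beside 0.23 over all genes. Of its 15 members over 500, 7 had an SD over 0.5 (46.7%, beside 5.9% of all genes). Igfbp1, an insulin-like growth factor binding protein that insulin represses, was 1004 in mouse 4, 5835 at the median and 10389 in mouse 3 (SD 1.28). Mice 3, 5, 6 and 2 were at 5835 or above, and mice 1, 7 and 4 at 2623 or below, the same 3 mice that were high in Cish. G6pc, which releases glucose from glucose-6-phosphate, ran from 5887 in mouse 7 through 7955 to 16825 in mouse 3 (SD 0.55). Pck1, the committed enzyme of glucose synthesis, ran from 15987 in mouse 5 through 20357 to 34547 in mouse 3 (SD 0.36). Another Pck1 probe set, with a mean of 10711, had an SD of 0.59 and an r of 0.96 with the brightest.

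Mouse 3 was highest for several further members. Lpin1, a phosphatidate phosphatase and coactivator, was 3793 in mouse 3 against 645 to 1405 in the others. Tsc22d3, the glucocorticoid-induced leucine zipper protein, was 5689 in mouse 3 against 1225 to 2751, and Cebpb, a transcription factor of the fasting and acute phase responses, 12225 against 4442 to 7861. Without mouse 3 the median SD of the list was 0.27. Fbp1, Gpt and Gpt2 were steady, with SDs of 0.20, 0.21 and 0.23.

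Outside that list mouse 3 also led Zbtb16, a zinc finger repressor induced by glucocorticoids, with 2185 against a median of 273 and a lowest value of 96.8 in mouse 6 (SD 1.33). Dusp1, a phosphatase that ends MAP kinase signals, was 6753 in mouse 3 with a median of 1198 and a lowest value of 806 in mouse 6 (SD 1.00). Without mouse 3 their SDs were 0.69 and 0.36. Both were high in a single animal, which is a different kind of spread from the 3-against-4 split of Cish.

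The planned correlations of this programme did not pass. Over 7 mice Pck1 and G6pc had r = 0.46 (rho = 0.36, exact permutation p = 0.304 and 0.444, adjusted 0.417 and 0.543) and r = 0.59 without the 2 mice farthest from the median of Pck1. Pck1 and Igfbp1 had r = 0.38 (rho = 0.32, exact permutation p = 0.427 and 0.498, adjusted 0.521 and 0.547) and r = 0.55 without those 2 mice. Leaving out mouse 3 alone turned both signs, to r = -0.31 and r = -0.07. In all, 11 pairs were measured and p-values were two-sided and adjusted over the 11 by the Benjamini-Hochberg method.

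Lipid droplet genes ranged from variable to steady. G0s2, an inhibitor of adipose triglyceride lipase, was 2715 in mouse 1, 12655 at the median and 18322 in mouse 5 (SD 1.16), with mice 1, 4 and 7 all at 5279 or below and the other 4 at 12655 or above. Plin5, a droplet coat protein, ran from 1076 in mouse 4 through 1454 to 3524 in mouse 3 (SD 0.60). Dgat2 and Dgat1, which complete triglyceride synthesis, had SDs of 0.20 and 0.16. Of 12 droplet genes over 500, 3 had an SD over 0.5 (25%, beside 5.9% of all genes), and the list's median SD was 0.37, or 0.25 without mouse 5.

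Fabp4, a fatty acid binding protein of adipocytes and macrophages, was 538 in mouse 1, 735 at the median and 3752 in mouse 6 (SD 0.99). Mice 2 and 5 were next at 1441 and 1426. Adipoq, the adipocyte hormone adiponectin, was 357 in mouse 6, its highest value, then 191 in mouse 2 and 163 in mouse 5, and 3.97 in mouse 4, its lowest. Of the 11 genes written in the adipocyte list 9 were measured and 3 passed 500, namely Car3, Fabp4 and Lipe, beside 5902 of all 18193 genes. None of the 9 was at 0. The summed signal of the list ran from 57230 to 91017 and was nearly all Car3, which hepatocytes also express. The part of fat tissue in the Fabp4 values was not tested. Cd36, a fatty acid transporter of several cell types, ran from 1588 in mouse 1 through 4545 to 6456 in mouse 5 (SD 0.78).

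Among PPAR alpha targets and ketogenesis genes, the fat-burning programme, 4 of 25 had an SD over 0.5 (16%, beside 5.9% of all genes). The list's median SD was 0.32, beside 0.23 over all genes. The 4 were Fabp4, Cd36, Plin5 and Angptl4, a lipase inhibitor that ran from 2205 in mouse 4 to 6117 in mouse 3. Creb3l3, Vnn3 and Acaa1b, also in the list, had SDs of 0.094, 0.13 and 0.17. Cyp4a14 and Pdk4, a planned pair of targets, had r = -0.65 (rho = -0.75, exact permutation p = 0.111 and 0.0663, adjusted 0.243 and 0.146), and r = -0.15 without the 2 mice farthest from the median of Cyp4a14.

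Fatty acid synthesis had a median SD of 0.42, and 7 of 20 members had an SD over 0.5 (35%, beside 5.9% of all genes). Srebf1, the insulin-driven transcription factor of fat synthesis, was 2616 in mouse 5, 4969 at the median and 6721 in mouse 4 (SD 0.56). Fasn, the fatty acid synthase, was 1097 in mouse 2, 3054 at the median and 4404 in mouse 7 (SD 0.67). Mlxipl, which responds to sugar, ran from 2240 in mouse 5 to 8815 in mouse 1 (SD 0.66), and its 3 highest mice were 1, 3 and 4. Thrsp, a lipogenic nuclear protein, ran from 13697 in mouse 2 to 30844 in mouse 7 (SD 0.45), while Elovl2 and Acss2 had SDs of 0.14 and 0.15. Another Thrsp probe set, with a mean of 11905, had an SD of 0.57.

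Srebf1 and Fasn had r = 0.73 over the mice (rho = 0.82, exact permutation p = 0.0377 and 0.0341), which did not pass adjustment (0.104 and 0.0938) and was 0.54 without the 2 mice farthest from the median of Srebf1. In cholesterol synthesis 3 of 15 members had an SD over 0.5 (20%, beside 5.9% of all genes), with a median of 0.29. Fdps, which makes farnesyl diphosphate, ran from 2336 in mouse 1 to 9723 in mouse 7. Idi1 ran from 1532 in mouse 3 to 4985 in mouse 5, and Msmo1 from 3842 in mouse 1 to 9711 in mouse 5. Fdft1, the squalene synthase, was steady at 4696 ± 383 (SD, n = 7).

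Clock genes form a feedback loop in which activators drive their own repressors over a day. Of the core loop 7 of 12 measured genes had a mean over 500, beside 5902 of all 18193 genes. Their median SD was 0.37, and 1 of the 7, Per3, passed 0.5 (14.3%, beside 5.9% of all genes). Per3, a period gene, was 484 in mouse 5 and 1338 in mouse 1 (SD 0.62), with mice 1, 4 and 7 at 1132 or above and the rest at or below the median of 625. Per2 ran from 683 in mouse 2 to 1500 in mouse 1, Cry1 from 316 in mouse 4 to 870 in mouse 3, and Cry2 from 439 in mouse 5 to 1177 in mouse 1. Clock ran from 407 to 730, and Nr1d2 and Rora, nuclear receptors of the loop, had SDs of 0.22 and 0.096.

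The 5 core genes under 500 had larger SDs. Arntl, which encodes the activator BMAL1, was 70.5 in mouse 7, 139 at the median and 368 in mouse 3 (SD 0.80). Nr1d1, which represses Arntl, was 25 in mouse 5, 218 at the median and 415 in mouse 4 (SD 1.21). Ciart was 17.5 in mouse 5 and 261 in mouse 4 (SD 1.27), Npas2 16.7 in mouse 7 and 92.0 in mouse 4 (SD 0.75), and Per1 121 in mouse 7 and 548 in mouse 3 (SD 0.70). All 5 lie below the signal minimum of the ranking, where probe sets could not be marked absent.

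Of the output factors driven by the clock 3 of 12 had an SD over 0.5 (25%, beside 5.9% of all genes). Dbp, a transcription factor with a strong daily rhythm in liver, was 3413 in mouse 5, 6322 at the median and 10470 in mouse 7 (SD 0.69), and mice 7, 1 and 4 were the 3 highest. Alas1, the first enzyme of haem synthesis, ran from 5485 in mouse 5 to 23277 in mouse 4 (SD 0.79) and belonged to the block of mice 1, 3 and 4. Noct, a phosphatase of nicotinamide cofactors, ran from 389 in mouse 7 to 1938 in mouse 3 (SD 0.75).

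Per3 and Dbp had r = 0.93 over the 7 mice (rho = 0.89, exact permutation p = 0.00456 and 0.0123, adjusted 0.0502 and 0.0677), and 0.93 without the 2 mice farthest from the median of Per3. Since Per3 split the mice into 3 high and 4 low animals, the coefficient mainly sets those groups apart, and a relation within them cannot be tested. Arntl and Dbp had r = -0.82 (rho = -0.82, exact permutation p = 0.0300 and 0.0341, adjusted 0.104 and 0.0938), and the relation rested on the 2 mice farthest from the median of Arntl: without them r was -0.23.

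Drug-metabolising cytochromes P450 had a median SD of 0.27 over 22 genes, and 4 passed 0.5 (18.2%, beside 5.9% of all genes). Cyp1a1, which the aryl hydrocarbon receptor induces, stood furthest out, with 41.3 in mouse 6, 60.1 at the median and 4638 in mouse 5 (SD 2.29). The 6 other mice lay between 41.3 and 77.2, and without mouse 5 the SD was 0.28. Cyp1a2, induced by the same receptor, was 18680 in mouse 5, inside the range of the others (10751 to 20701), and Ahr, the receptor itself, was 1294 in mouse 5 with a range of 1154 to 1403. Cyp2d22 ran from 2999 to 8731 and Cyp2c38 from 1717 to 4705, whereas Cyp2d10, Cyp2d26 and Cyp2a12 had SDs of 0.085, 0.11 and 0.12.

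In the bile acid list 2 of 22 genes had an SD over 0.5 (9.09%, beside 5.9% of all genes), and the median SD was 0.25. Nr0b2, the small heterodimer partner that represses bile acid synthesis, was 559 in mouse 4, 1268 at the median and 3891 in mouse 3 (SD 0.94). Abcc3, an export pump, ran from 1923 to 5580. Cyp7a1, which catalyses the controlling first step from cholesterol to bile acids, ran from 4280 in mouse 3 through 8645 to 13061 in mouse 2 (SD 0.50). Mouse 3, the highest for Nr0b2, was the lowest for Cyp7a1. Mouse 2, the highest for Cyp7a1, was the next highest for Nr0b2, at 2665. A relation between Nr0b2 and Cyp7a1 was not tested. Hsd3b7, Slc27a5 and Amacr, later enzymes, had SDs of 0.11, 0.11 and 0.14.

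Of 18 glutathione transferases 3 (16.7%, beside 5.9% of all genes) passed 0.5, and the list's median SD was 0.23, as over all genes. Gstm3, Gstm1 and Gstm2 of the mu class had SDs of 0.69, 0.65 and 0.62, with Gstm1 at 4814 in mouse 5 and 17400 in mouse 4, while Gstt1 had 0.047 and ranged from 11457 to 12511. Gstm7, Gstm4, Gstm5 and Gstm6, also of the mu class, had SDs of 0.12, 0.25, 0.32 and 0.36. Gstm genes are near copies that can share probes. Of 14 sulfotransferases and glucuronosyltransferases 2 passed 0.5 (14.3%, beside 5.9% of all genes), Ugt2b38 and Sult1d1, which ran from 5392 in mouse 4 to 19502 in mouse 5.

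No mouse was highest throughout the acute phase list. Of 20 measured genes 15 had a mean over 500, beside 5902 of all 18193 genes. Their median SD was 0.35, and 2 of the 15 passed 0.5, Socs3 and Saa2. Saa1, serum amyloid A, was 1831 in mouse 7, 2181 at the median and 3825 in mouse 5 (SD 0.45). Saa2 ran from 289 in mouse 1 to 898 in mouse 2 (SD 0.64), and the Saa genes are near copies. Lcn2, the siderophore-binding lipocalin, had a mean of 250 and Saa3 of 263, and Orm2 and Orm3 had 316 and 39.3.

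The acute phase list had a median SD of 0.35 over 15 genes, beside 0.23 over all genes, and 2 passed 0.5 (13.3%, beside 5.9%). Among its steadier members, Hp, haptoglobin, had 35826 ± 4805, Orm1, orosomucoid, 28810 ± 4039, and Cp, ceruloplasmin, 35724 ± 3873 (SD, n = 7), with SDs of log2 signal of 0.19, 0.22 and 0.16. Hamp, the iron hormone hepcidin, ran from 20862 in mouse 1 to 40753 in mouse 3, and Hamp2, its copy, from 9593 in mouse 1 to 21031 in mouse 5. Apcs, Crp, Lbp, Fgl1, Steap4, Saa4 and Serpina3n had SDs of 0.36, 0.29, 0.35, 0.43, 0.39, 0.26 and 0.21, and Il1rn had a mean of 234. Saa1 and Lcn2 had r = -0.04 (rho = -0.04, exact permutation p = 0.938 and 0.963, adjusted 0.938 and 0.963), with 0.26 without the 2 mice farthest from the median of Saa1.

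Metallothioneins, which bind zinc and copper and are induced by metals and glucocorticoids, differed between the 2 members. Mt2 was 2559 in mouse 7, 4897 at the median and 13203 in mouse 5 (SD 0.88), with mouse 3 next at 11595. Mt1 ran from 12090 in mouse 6 through 13965 to 19612 in mouse 3 (SD 0.30), and mouse 5, highest for Mt2, was at 12992. They had r = 0.47 (rho = 0.61, exact permutation p = 0.270 and 0.167, adjusted 0.417 and 0.262), and 0.12 without the 2 mice farthest from the median of Mt1. With each mouse left out in turn r lay between 0.27 and 0.88, the highest without mouse 5. Over 12 alternatives the adjusted p of the exact permutation test lay between 0.0458 and 0.749. It is not adjusted for the choice of alternative, so the lowest value is no support for the pair. The Mt1 probe set is of a type that can match related transcripts.

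Both promoters are shown because both genes are taught as targets of the same metal-responsive factor. The windows again run from 250 bases before to 30 after the RefSeq start in GRCm38.p6, on the plus strand of chromosome 8, at chr8:94178839-94179118 for Mt1 and chr8:94172368-94172647 for Mt2, and capitals mark TGCACNC or TGCGCNC, the core of the metal response element, on either strand.
Mt1: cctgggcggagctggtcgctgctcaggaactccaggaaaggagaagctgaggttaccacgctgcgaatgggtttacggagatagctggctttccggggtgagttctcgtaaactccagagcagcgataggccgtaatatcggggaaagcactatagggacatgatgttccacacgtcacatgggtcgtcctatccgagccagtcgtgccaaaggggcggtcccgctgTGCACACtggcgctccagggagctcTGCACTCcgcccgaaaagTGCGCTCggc
Mt2: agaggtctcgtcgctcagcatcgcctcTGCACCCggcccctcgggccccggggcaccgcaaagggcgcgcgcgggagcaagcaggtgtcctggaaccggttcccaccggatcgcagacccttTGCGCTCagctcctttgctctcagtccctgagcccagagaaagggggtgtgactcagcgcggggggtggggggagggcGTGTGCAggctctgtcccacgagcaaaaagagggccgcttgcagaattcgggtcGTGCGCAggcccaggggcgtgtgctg
Mt1 holds 3 matches and Mt2 holds 4. Of the 32851 promoter windows 24.1% hold at least 1 and 1.73% hold 3 or more. Of the other genes in the list, the zinc carriers Slc39a14, Slc30a1 and Slc39a4 had SDs of 0.30, 0.30 and 0.28. Slc39a5 and Slc30a10 had means of 32.5 and 407.

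MHC class II genes, expressed by antigen-presenting cells, had 3 of 6 members over 500, beside 5902 of all 18193 genes. H2-Aa ran from 603 in mouse 6 to 1199 in mouse 4 (SD 0.42), H2-Eb1 from 448 in mouse 6 to 794 in mouse 4 (SD 0.32) and Cd74, the invariant chain, from 1017 in mouse 5 to 2482 in mouse 4 (SD 0.40). H2-Ab1 had a mean of 446, H2-DMa of 163 and Ciita, the class II transactivator, of 120. Mouse 4 was highest for H2-Aa, H2-Eb1, H2-Ab1, H2-DMa and Cd74. H2-Aa and Cd74 had r = 0.59 (rho = 0.61, exact permutation p = 0.169 and 0.167, adjusted 0.309 and 0.262) and r = -0.74 without the 2 mice farthest from the median of H2-Aa, so the sign rested on those mice. With each mouse left out in turn r lay between 0.16 and 0.90, the highest without mouse 5. Over 12 alternatives the adjusted p of the exact permutation test lay between 0.0306 and 0.825. It is not adjusted for the choice of alternative, so the lowest value is no support for the pair.

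Heat shock chaperones had a median SD of 0.33, and 1 of 13 passed 0.5 (7.69%, beside 5.9% of all genes). It was the co-chaperone Bag3, which ran from 220 in mouse 5 to 741 in mouse 4. Hspa1b, the inducible HSP70, was 3420 in mouse 7, 5254 at the median and 8909 in mouse 6 (SD 0.49), and mouse 2 was next at 8656. Dnajb1, its partner, was 834 in mouse 1 and 1546 in mouse 2. The pair had r = 0.81 (rho = 0.93, exact permutation p = 0.0226 and 0.00675, adjusted 0.104 and 0.0677), and r = 0.31 without the 2 mice farthest from the median of Hspa1b, so the relation rested on those mice.

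Other inflammatory and stress lists were read against the 5.9% of all genes over 0.5 and the overall median SD of 0.23. Of 14 interferon-stimulated genes, with a median SD of 0.27, 2 passed 0.5 (14.3%), Cxcl9 at 391 to 990 and Rsad2 at 423 to 1140. None of 18 endoplasmic reticulum stress genes did, and their median SD was 0.25. Kupffer cell markers had a median SD of 0.23 and endothelial markers also 0.23, with none over 0.5 in either list. Of 9 stellate cell and matrix genes, with a median SD of 0.34, 2 passed (22.2%), Col4a1, a basement membrane collagen, at 293 in mouse 5 to 749 in mouse 4, and Bgn, the proteoglycan biglycan, at 1239 in mouse 2 to 3004 in mouse 3.

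**Figure D5:**
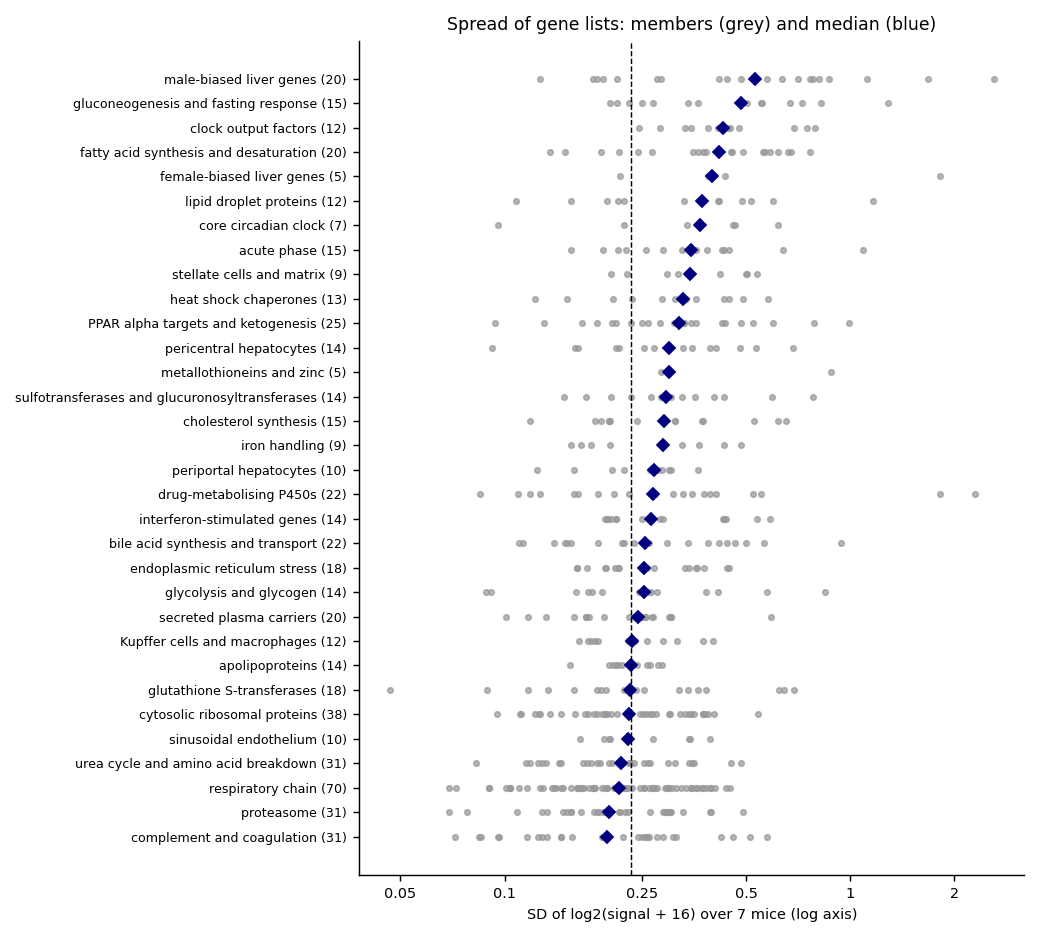
SD of log2(signal + 16) over the 7 control mice (log axis) for the members with a mean signal over 500 of each gene list with at least 5 such members; grey points are genes, blue diamonds list medians, numbers in brackets members, and the dashed line the median of all 5902 genes (0.23). The lists of male-biased genes, fasting, clock output and fatty acid synthesis lie furthest right, and those of complement, the proteasome and the respiratory chain at or left of the line.

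Lists of nitrogen disposal, energy and plasma cascades had median SDs slightly below the 0.23 of all genes. They are bright lists, with median signals of 11424 for nitrogen, 13550 for the respiratory chain and 13593 for complement and coagulation. All 292 genes with mean signals of 10000 to 20000 had a median SD of 0.21, with 3.08% over 0.5. By median SD these lists were thus about as steady as equally bright genes. Urea cycle and amino acid breakdown had a median SD of 0.22 with none of 31 genes over 0.5, beside 5.9% of all genes. Cps1 had 37717 ± 3308, Otc, its neighbour in the cycle, 28164 ± 4573, and Mat1a, the hepatic methionine adenosyltransferase, 39767 ± 3885 (SD, n = 7). The respiratory chain had a median SD of 0.21 with none of 70 over 0.5, and the proteasome 0.20 with none of 31. Cytosolic ribosomal proteins had 0.23, and 1 of 38 passed (2.63%), Rps27 at 330 to 857.

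Complement and coagulation had the lowest median among lists with at least 5 members over 500, 0.198 over 31 genes, close to the 0.201 of the proteasome. Cfb, factor B of complement, ran only from 12772 to 14482 (SD 0.072), Serpinf2, the plasmin inhibitor, from 15418 to 18413 and Serpind1, heparin cofactor II, from 16258 to 19213. Of the 31 genes 2 passed 0.5 (6.45%, beside 5.9% of all genes). They were C6, at 1942 in mouse 5 and 5851 in mouse 3, which is also on the male-biased list, and C1s1, at 6414 in mouse 6 and 14405 in mouse 1. Apolipoproteins had a median of 0.23 with none of 14 over 0.5. Of 20 secreted carriers 1 passed (5%, beside 5.9% of all genes), Serpina7, the thyroxine-binding globulin, at 2465 in mouse 3 to 7637 in mouse 6.

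Zonal markers of the liver lobule had a median SD of 0.30 over 14 pericentral and 0.27 over 10 periportal genes, beside 0.23 over all genes. Of the pericentral genes 2 passed 0.5 (14.3%, beside 5.9% of all genes), Oat, an ornithine aminotransferase, at 6843 in mouse 1 to 22886 in mouse 6, and Lect2, a secreted cytokine-like protein, at 3102 in mouse 1 to 8791 in mouse 5. None of the periportal genes did. Glul, glutamine synthetase, had 10722 ± 2357 and Cyp2f2, a periportal P450, 31845 ± 3509 (SD, n = 7).

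The lowest SD of all belonged to the brightest probe set of Atxn7l3b, with 6193 ± 143 (SD, n = 7), from 5968 in mouse 2 to 6409 in mouse 6 and an SD of 0.033 on the log2 scale. The 3 other Atxn7l3b probe sets over 500 had SDs of 0.18, 0.26 and 0.31. Gatd3a, a mitochondrial protein, had 6025 ± 145, and Gcsh, a carrier protein of the glycine cleavage system, 6601 ± 178 (SD, n = 7). Acadvl, the very-long-chain acyl-CoA dehydrogenase, ran from 10956 to 12397 and Mttp, which loads lipid onto apolipoprotein B, from 9115 to 10179. A second Mttp probe set, with a mean of 5382, had an SD of 0.19. Common reference genes were less even than these: Actb had an SD of 0.22, Hprt 0.22, Gusb 0.23 and Tfrc, the transferrin receptor, 0.37. Tbp had 0.13 at a mean of 430, and Gapdh and Ppia were not analysed here.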

How the data were processed

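Liver RNA of 7 control mice, 1 per array, was read on Affymetrix mouse expression arrays. The deposited table held linear signal intensity for 45101 probe sets. Per the submitters' processing notes the authors made these intensity values with the MAS5 algorithm, of unstated version, which condenses a probe set's probes into 1 number. The deposited columns agree in their mean once 2 percent of probe sets is trimmed at either end: arrays were scaled but not made equal in distribution, which leaves array-wide shifts of bright genes in place. Detection calls were not used here, so no probe set was marked absent, and depth in the sense of counts does not apply; the number of arrays limits the precision. No other column of the table entered any value here.

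Of the probe sets 64 were controls, 34945 had 1 gene in the platform annotation, 932 had several and 9160 had none listed; only the first kind was used. The gene number was found in the RefSeq gene table of GRCm38.p6 for 34741 probe sets, and 0 symbols were updated. The probe set with the highest mean over the 7 arrays stood for a gene. Spread is the SD of log2(signal + 16) over genes with a mean over 500, computed here from the deposited intensity. The added 16 understates log2 differences of dim genes. The array levels of 24 poly-A and 18 hybridisation spike-in probe sets and the 3'/5' ratios served as quality measures.

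Named genes are the 30 brightest and the 40 with the highest SD, up to 5 highest and 3 lowest members by SD of each of 44 gene lists (for cell types up to 5 by signal), all members of the clock, acute phase, metallothionein and MHC class II lists, the genes of 12 planned pairs and 8 reference genes; others were named after their values were seen. The members and lists were chosen with earlier results of these data known. Of the 12 pairs 11 were measured, and each was tested by an exact permutation of pairings. A mouse count of 7 was used throughout and nothing was compared between diets. Promoters are from RefSeq, GRCm38.p6. Python 3.11.15, numpy 2.4.6, pandas 2.3.3 and matplotlib 3.10.9 were used. The ranking script was tested on simulated data. Alternatives were a pseudocount of 1 or 64, quantile or median scaling, the mean over a gene's probe sets, a minimum of 250 or 1000, the median absolute deviation, leaving out each mouse, and, added after the data were seen, a fit on the poly-A level or on the 3'/5' index.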

Additional observations from a re-analysis of the deposited data

Results flagged for a closer look

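Of 123 named genes examined for a mouse far from the others, by the gap to its nearest neighbour over the whole range, 5 had one (4.07%), and so did 275 of all 5902 genes (4.66%), near the 1 in 20 that chance gives. Cyp1a1 was far above the others in mouse 5, at 4638.26 against a next highest value of 77.2. Dusp1 was far above in mouse 3, at 6753.3 against 1744, and Slc39a5, a zinc carrier that is dim on the array, at 98.4643 against 29.8. Zdhhc12, a palmitoyltransferase, was far below in mouse 5, at 86.0931 against 467, and Zfp395, a zinc finger protein, also in mouse 5, at 111.858 against 440.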

How the results depend on the processing

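No paired analysis was possible because only the control group was described, so no groups share replicate numbers. The median SD of 0.23 lay between 0.21 and 0.24 when each mouse was left out, and the count of genes with a mean over 500 between 5849 and 5938. The count with an SD over 0.5 lay between 250 (without mouse 5) and 419, and the count over 1 between 13 and 22. A minimum of 250 gave 587 and 33 genes, a minimum of 1000 gave 186 and 8 of 3850, and the median absolute deviation gave 35 over 1. The poly-A level as a covariate gave 174 and 10, of which 163 of the 174 were among the 348, and lowered the median SD of sulfotransferases and glucuronosyltransferases to 0.19. The 3'/5' index gave 405 genes over 0.5. Quantile normalization lowered the medians of secreted carriers and apolipoproteins to 0.13 and 0.11.

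Leaving out a mouse moved 3 list medians by over 1.5 times: gluconeogenesis and fasting 0.27 to 0.52 (lowest without mouse 3), female-biased genes 0.26 to 0.43 and lipid droplet proteins 0.25 to 0.41 (lowest without mouse 5). The r of Per3 and Dbp lay between 0.90 and 0.96, and its adjusted p between 0.0196 and 0.115 over 12 alternatives by the exact permutation test; it passed with quantile normalization (r = 0.94, adjusted p = 0.0196), the mean of probe sets (r = 0.97, adjusted p = 0.0349) and without mouse 4 (adjusted p = 0.0306). The r of Saa1 and Lcn2 changed sign, to 0.052 with quantile normalization and 0.0082 with the mean of probe sets, and lay between -0.32 and 0.37 with a mouse left out. With a mouse left out r lay between -0.31 and 0.91 for Pck1 and G6pc, -0.072 and 0.74 for Pck1 and Igfbp1, 0.27 and 0.88 for Mt1 and Mt2, 0.16 and 0.90 for H2-Aa and Cd74, and -0.46 and 0.25 for the 3'/5' index and the hybridisation spike-ins (with all 7, r = -0.10, rho = -0.39, exact permutation p = 0.810 and 0.396, adjusted 0.891 and 0.543). The cause of these changes was not tested.

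Among the 40 variable genes 32 of 600 alternative SDs moved by over 1.5 times. Without mouse 5 the SD was 0.28 for Cyp1a1, 0.66 for Tns2, 0.43 for Zdhhc12, 0.36 for Zfp395 and 0.54 for Slc25a23; without mouse 3 it was 0.69 for Zbtb16, 0.36 for Dusp1 and 0.46 for Il1r1; without mouse 4 it was 0.49 for Egfr; and without mouse 6 it was 0.62 for Fabp4. All 90 alternative averages of the 30 brightest genes, from quantile or median scaling or the median over mice, moved by less than 1 SD. These alternatives keep the average level of bright genes nearly fixed, so a larger move was hardly possible. Only 7 arrays and no detection calls were used, which limits the precision of every SD.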
